A study of Mus musculus with 18 samples.

Results

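The mitochondrial solute carrier genes of family 25 (SLC25) were followed in cultured adult mouse neural stem cells exposed to hydrogen peroxide. All symbols beginning with Slc25a in the unfiltered table of the 1 ng libraries were taken as members. This gave 48 genes among 50600 rows, which held 50230 distinct symbols. RNA was prepared from cultures of dentate gyrus neural stem cells of C57Bl6J mice aged 6 to 9 weeks. The cultures were at passage 6 to 15 by the labels, while the methods give a lower first passage. They were treated for 24 h with 500 uM H2O2 or with vehicle, which is water in the labels and PBS in the methods. About 30000 cells were used per culture, the RNA had an integrity number of 10, and each RNA was diluted to 10 pg, 100 pg and 1 ng before SMART-Seq amplification and sequencing, giving 3 H2O2 libraries and 3 vehicle libraries per input. In the tables each library carries its culture's name, F5, F8 or M9. The methods describe 1 female and 1 male line, each from pooled animals, and 2 female and 1 male replicate per treatment, so the 3 cultures are not 3 unrelated donors. The 3 inputs are dilutions of the same RNA and are not independent repeats of the treatment.

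SLC25 proteins sit mostly in the inner mitochondrial membrane, which is otherwise nearly impermeable to metabolites. Each moves a particular substrate, often by exchanging one molecule for another, and so links the pathways of the matrix with those of the cytosol. The family supplies phosphate and ADP to ATP synthase and carries citrate, amino acids, iron, coenzyme A and nucleotides, and in neural stem cells these exchanges accompany the shift between glycolytic and oxidative metabolism.

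CLEAR, a filter on the evenness of read coverage, kept 40 of the 48 members at 1 ng. The 8 that it left out (Slc25a2, Slc25a5-ps, Slc25a21, Slc25a31, Slc25a34, Slc25a41, Slc25a48 and Slc25a54) had no value above 6.98 normalized counts in any 1 ng library, and Slc25a54 had no read there. A normalized count is the number of read pairs assigned to a gene divided by 1 size factor per library. The 18 libraries held 10032628 to 13051643 counted reads. All 10 neural stem cell markers checked were kept at 1 ng, and Nes had 16846, 18409 and 15567 normalized counts in the H2O2 libraries of F5, F8 and M9, against 19986, 19682 and 15124 in the vehicle libraries. Of these 10, Vim alone passed by limma and rose, with 20965, 18248 and 16157 under H2O2 and 13494, 12361 and 9941 under vehicle (log2 fold change 0.63, limma adjusted p = 0.0355). DESeq2 called Hopx higher as well (log2 fold change 1.21 and adjusted p = 0.134 in limma, DESeq2 adjusted p = 0.0336). Markers of other cell types were also read at 1 ng. The summed level of 5 astrocyte markers ran from 2450.0 to 3241 in H2O2 and from 1875 to 2565 in vehicle libraries, that of 5 oligodendrocyte-lineage markers from 1092 to 1914 and from 1639 to 2078, mostly Cspg4, with Sox10 at 0 in all libraries. Sums of 5 microglia, 5 neuron and 5 endothelium and pericyte markers were at most 167, 327 and 71.6 in H2O2 and 129.6, 181 and 33.0 in vehicle libraries. None of the tested markers of these 5 cell types passed by limma without a block. The astrocyte marker Gfap had 139.8, 70.2 and 67.4 under H2O2 and 52.2, 28.9 and 45.5 under vehicle (log2 fold change 1.07, limma adjusted p = 0.0910, or 0.0427 with the culture as a block, DESeq2 adjusted p = 0.0300). The summed level of 8 dividing-cell markers was 1245, 6790 and 8832 normalized counts in the H2O2 libraries of F5, F8 and M9, against 18350, 20226 and 22362 in the vehicle libraries. These sums were lower under H2O2 at all 3 inputs, beside every result that follows. The part of the dividing-cell markers, Vim, Hopx and Gfap in these results was not tested. In bulk RNA, fewer cells of a type and less RNA per cell cannot be told apart.

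With 1 ng of RNA, 4 SLC25 genes rose with H2O2 and 1 fell. Slc25a42, the carrier of coenzyme A, and Slc25a45 rose most, to 2.44 and 2.35 times the vehicle mean. Slc25a3, the phosphate carrier, rose to 1.43 times and Slc25a12, the aspartate-glutamate carrier aralar, to 1.34 times. Slc25a13, the second aspartate-glutamate carrier, citrin, fell to 53.5% of the vehicle mean. The other 35 tested members did not pass limma's test (Benjamini-Hochberg adjusted p under 0.05 over 13692 genes). Among all genes tested, 5.57% were called higher and 7.11% lower, so the members' 4 of 40 and 1 of 40 stand at 10% and 2.5%. With the culture as a block, limma called 7 higher and 2 lower, where all genes gave 8.44% and 9.87%.

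The promoters of 3 of these genes are printed because Slc25a12 and Slc25a13 do the same transport and moved in opposite directions, and because Slc25a42 had the largest change. They are RefSeq sequences of build GRCm38.p6, from 250 bases before to 50 bases after the annotated start. Capitals mark matches, on either strand, to any of 6 motifs. They are the box bound by NF-Y (letters CCAAT), the E-box (letters CACGTG), the TATA box (letters TATAAA), the cAMP response element (letters TGACGTCA), the ETS site (letters CCGGAAG) and the core of the antioxidant response element (letters TGACNNNGC). The NF-Y box and the E-box alone matched in these 3 windows, and no matches overlapped.
Slc25a12, chr2:71367706-71368005, minus strand: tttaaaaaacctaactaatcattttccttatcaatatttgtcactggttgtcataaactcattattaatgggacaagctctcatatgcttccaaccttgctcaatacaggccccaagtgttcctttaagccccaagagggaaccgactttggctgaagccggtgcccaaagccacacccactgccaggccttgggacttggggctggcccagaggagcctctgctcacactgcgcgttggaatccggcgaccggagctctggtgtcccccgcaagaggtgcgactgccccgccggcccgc
Slc25a13, chr6:6217124-6217423, minus strand: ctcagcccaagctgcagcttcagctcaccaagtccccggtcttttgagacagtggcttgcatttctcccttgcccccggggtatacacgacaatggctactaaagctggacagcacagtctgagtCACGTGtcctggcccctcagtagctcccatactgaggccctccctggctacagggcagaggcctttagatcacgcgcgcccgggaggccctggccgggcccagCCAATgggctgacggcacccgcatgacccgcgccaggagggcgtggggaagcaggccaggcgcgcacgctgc
Slc25a42, chr8:70212232-70212531, minus strand: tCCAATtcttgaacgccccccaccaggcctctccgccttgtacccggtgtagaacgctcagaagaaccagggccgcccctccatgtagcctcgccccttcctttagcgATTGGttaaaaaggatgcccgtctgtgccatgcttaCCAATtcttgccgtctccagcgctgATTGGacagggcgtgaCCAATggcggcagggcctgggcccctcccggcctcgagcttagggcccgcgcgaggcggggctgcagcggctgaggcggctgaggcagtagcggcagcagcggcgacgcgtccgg
The Slc25a12 window held no match. The Slc25a13 window held 1 E-box, found in 7.15% of all 32851 promoters of this length, and 1 NF-Y box, found in 37.4%. The Slc25a42 window held 5 NF-Y boxes, and 89 promoters (0.271%) held at least as many, a count looked up after the matches were seen. In the windows of the other genes that passed, Slc25a3 held 1 ETS site (8.86% of promoters) and 1 antioxidant response element core (12.4%), and Slc25a45 held none of the motifs. The table had an entry for 36 of the 48 members. A match is a string of letters and not a measured binding site.

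The carriers of phosphate and adenine nucleotides feed ATP synthase and return its product. Slc25a3 (chromosome 10, 91116574 to 91124059, minus strand, GENCODE M21 on GRCm38) imports phosphate into the matrix. Its normalized counts were 7248, 5764 and 6101 in the H2O2 libraries of F5, F8 and M9, against 4471, 4645 and 4260.1 in the vehicle libraries. Every H2O2 library was above every vehicle library, with F5 highest under H2O2. The log2 fold change was 0.51 (SE 0.10, limma adjusted p = 0.0296), from 6371 ± 778 in H2O2 and 4459 ± 193 in vehicle cultures (SD, n = 3 each).

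The ADP/ATP exchangers Slc25a4 and Slc25a5, which swap matrix ATP for cytosolic ADP, were the most abundant members per length. Slc25a4 had 15226, 10585 and 11108 normalized counts under H2O2 and 9486, 10156 and 9046 under vehicle, without overlap, and did not pass (log2 fold change 0.35, SE 0.14, limma adjusted p = 0.145). Slc25a5 had 21657, 18574 and 19330 under H2O2 and 20137, 18875 and 18902 under vehicle. Its groups overlapped, and its log2 fold change was 0.04 (SE 0.10, limma adjusted p = 0.824). The level of Slc25a4 over that of Slc25a5, both per kilobase of exons, was 0.492, 0.399 and 0.402 in the H2O2 libraries and 0.330, 0.376 and 0.335 in the vehicle libraries, which do not overlap. These paralogs and the pseudogene Slc25a5-ps are alike in sequence, and how reads matching more than 1 of them were counted is not given in the sources used here.

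The remaining tested carriers of this group, Slc25a23, Slc25a24 and Slc25a25, exchange ATP-Mg for phosphate and respond to calcium. Slc25a24 had 183, 162 and 141 normalized counts under H2O2 and 129, 113 and 97.2 under vehicle, which did not overlap (log2 fold change 0.52, SE 0.20, limma adjusted p = 0.116). At 100 pg its groups overlapped and its log2 fold change was -0.57 (SE 0.52, limma adjusted p = 0.585). At 1 ng Slc25a23 had a log2 fold change of 0.21 without overlap, and Slc25a25 one of -0.29 with overlap, and neither passed. Of the 6 tested genes of the group, 5 had a positive log2 fold change and the median was 0.28.

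**Figure D1:**
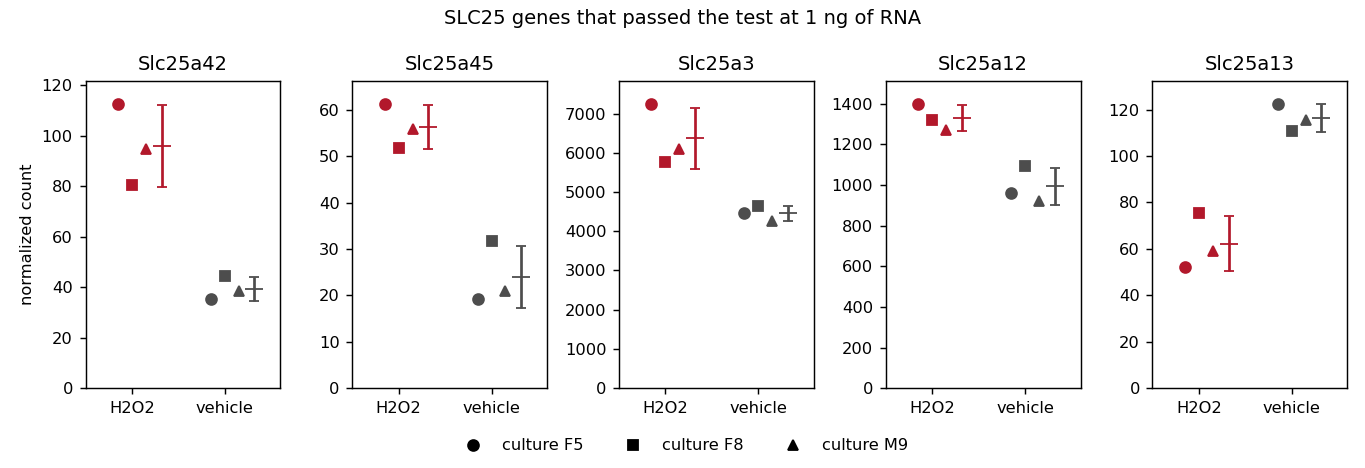
Normalized counts at 1 ng of the 5 SLC25 genes that passed, 1 panel per gene with its own axis from 0. Points are single libraries (shape gives the culture), H2O2 in red and vehicle in grey, and the bar beside them is the mean ± SD of 3. In each panel the 3 H2O2 libraries lie on one side of the 3 vehicle libraries, below them only for Slc25a13.

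Amino acid carriers included the only pair of paralogs whose members passed in opposite directions. Slc25a12 and Slc25a13 export aspartate from mitochondria in exchange for glutamate, a step of the malate-aspartate shuttle, and both sense calcium. Slc25a12 (chromosome 2, 71271063 to 71367749, minus strand) had 1400.3, 1318 and 1272 normalized counts under H2O2 and 962, 1095 and 924 under vehicle. All 3 H2O2 libraries were above all vehicle libraries. The log2 fold change was 0.42 (SE 0.10, limma adjusted p = 0.0367).

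Slc25a13 (chromosome 6, 6041218 to 6217173, minus strand) had 52.3, 75.3 and 59.0 normalized counts under H2O2 and 122, 111 and 116 under vehicle. The H2O2 libraries were the lower ones in all 3 cultures, with F5 lowest. The log2 fold change was -0.91 (SE 0.22, limma adjusted p = 0.0400). Per kilobase of exons, Slc25a12 exceeded Slc25a13 by 13.8, 9.06 and 11.1 times in the H2O2 libraries of F5, F8 and M9, against 4.06, 5.12 and 4.13 times in the vehicle libraries. This ratio was therefore higher under H2O2 in each culture at 1 ng, and is given as a description since both genes had passed singly.

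Slc25a29, a carrier of basic amino acids, had 1134, 770 and 561 normalized counts under H2O2 and 533, 519 and 356 under vehicle. The groups did not overlap, and M9 was lowest in both. Its log2 fold change was 0.77 (SE 0.26, limma adjusted p = 0.0909), and with the culture as a block the adjusted p was 0.0189. Slc25a18, a glutamate carrier, had 2399, 1954 and 2862 under H2O2 and 1992, 1610 and 2223 under vehicle, with overlap between groups but a higher value under H2O2 in each culture. Its log2 fold change of 0.30 had a limma adjusted p of 0.255, or 0.0470 with the block. Slc25a22, the other glutamate carrier, had a log2 fold change of -0.02 in limma (adjusted p = 0.964) and of 0.02 in DESeq2.

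The ornithine carrier Slc25a15 was lower in every H2O2 library (528, 595 and 575 normalized counts) than in any vehicle library (648, 694 and 758), with a limma adjusted p of 0.0983. The glycine carrier Slc25a38 and the branched-chain amino acid carrier Slc25a44 had log2 fold changes of 0.30 and 0.05, with overlapping groups. In all, 8 amino acid carriers were tested, 1 rose, 1 fell and 6 did not pass.

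Among carriers of cofactors and nucleotides, 1 of 11 passed. Slc25a42 (chromosome 8, 70184340 to 70212305, minus strand) imports coenzyme A in exchange for adenine nucleotides. It had 113, 80.3 and 94.8 normalized counts under H2O2 and 35.1, 44.3 and 38.5 under vehicle. The lowest H2O2 library was well above the highest vehicle library. The log2 fold change was 1.26 (SE 0.24, limma adjusted p = 0.0268), the largest of any member at 1 ng. Its relative Slc25a16 had 298, 208 and 258 under H2O2 and 251, 226 and 256 under vehicle, with overlap (log2 fold change 0.05, limma adjusted p = 0.874). The level of Slc25a42 over Slc25a16 per kilobase was 0.303, 0.308 and 0.294 in H2O2 libraries and 0.112, 0.157 and 0.121 in vehicle libraries.

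**Figure D2:**
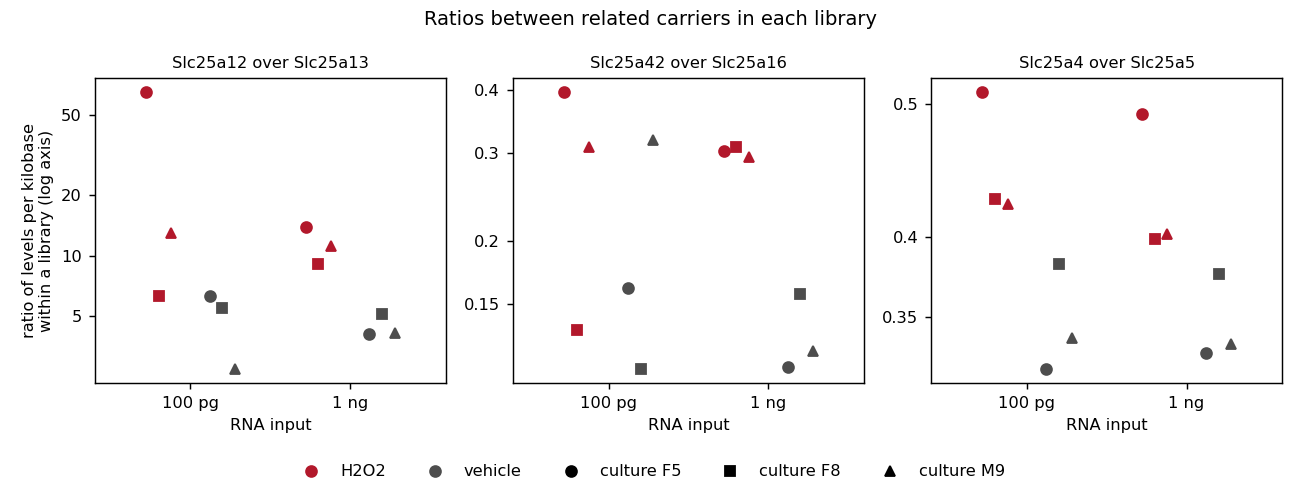
Ratio of levels per kilobase of exons within each library, on log axes, for Slc25a12 over Slc25a13, Slc25a42 over Slc25a16 and Slc25a4 over Slc25a5, at 100 pg and 1 ng. Points are libraries, H2O2 (red) left of vehicle (grey), with shape for culture. At 1 ng the groups separate in all 3 panels, from 9.06 to 13.8 against 4.06 to 5.12 for the first. At 100 pg the Slc25a42 over Slc25a16 ratios overlap.

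Slc25a17, the peroxisomal member of the family, which carries coenzyme A, FAD and NAD, had 1921, 1873 and 1658 normalized counts under H2O2 and 1364, 1613 and 1124 under vehicle. The groups did not overlap. Its log2 fold change was 0.42 (SE 0.14), with a limma adjusted p of 0.0811, or 0.0364 with the culture as a block. The pyrimidine nucleotide carrier Slc25a33 had 211, 165 and 196 under H2O2 and 264, 293 and 256 under vehicle, again without overlap. Its log2 fold change was -0.51 (SE 0.16, limma adjusted p = 0.0669). At 100 pg its groups overlapped, with a log2 fold change of -0.02 (limma adjusted p = 0.969). The other pyrimidine carrier, Slc25a36, had a log2 fold change of 0.13 at 1 ng.

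Slc25a39, needed for import of glutathione, had 4851, 4614 and 4605 normalized counts under H2O2 and 4488, 4626 and 4172 under vehicle. The groups overlapped, and the log2 fold change was 0.08 (SE 0.08, limma adjusted p = 0.518). Its relative Slc25a40 had a log2 fold change of -0.30 (SE 0.25). The carriers of S-adenosylmethionine (Slc25a26), folate (Slc25a32) and NAD (Slc25a51) had log2 fold changes of 0.44, -0.32 and -0.14, and none passed.

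No carrier of citrate, dicarboxylates or the uncoupling-like group passed, of 6 tested. Slc25a10, the dicarboxylate carrier, had 431, 544 and 408 normalized counts under H2O2 and 562, 700.4 and 653 under vehicle. The groups did not overlap and the H2O2 library was lower in each culture. Its log2 fold change was -0.48 (SE 0.15), with a limma adjusted p of 0.0685, or 0.0396 with the block. Slc25a11, the oxoglutarate carrier and the partner of aralar in the malate-aspartate shuttle, had 2288, 2037 and 2221 under H2O2 and 1858, 1816 and 1720.2 under vehicle, without overlap (log2 fold change 0.28, SE 0.08, limma adjusted p = 0.0667).

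The citrate carrier Slc25a1 had 1735, 1529 and 1528 normalized counts under H2O2 and 1386, 891 and 1315 under vehicle, which also did not overlap (log2 fold change 0.44, limma adjusted p = 0.119). Slc25a27, an uncoupling-like protein of brain, had 67.4, 52.9 and 70.6 under H2O2 and 58.6, 42.3 and 39.4 under vehicle, with overlap (log2 fold change 0.45, SE 0.27, limma adjusted p = 0.295). Slc25a14 and Slc25a30 had log2 fold changes of -0.37 and -0.39, both with overlap.

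Among the smaller groups, the mitoferrins Slc25a37 and Slc25a28, which import iron, had log2 fold changes of -0.36 and 0.20. The acylcarnitine carrier Slc25a20 had one of 0.29, and Slc25a46, an outer-membrane protein that shapes mitochondria, one of 0.18. None of these 4 passed.

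Slc25a45 was 1 of 5 tested members that had not been assigned a substrate for grouping. It lies on chromosome 19 (5877808 to 5885878, plus strand). It had 61.4, 51.9 and 55.8 normalized counts under H2O2 and 19.2, 31.7 and 21.02 under vehicle. The groups were well apart. The log2 fold change was 1.23 (SE 0.29, limma adjusted p = 0.0377). The other 4 were Slc25a35, Slc25a43, Slc25a47 and Slc25a53, whose groups overlapped. Counting did not use strand, and exons of Slc25a35 are shared for 31.3% of their length with Rangrf on the opposite strand. Other members had smaller overlaps with exons on the opposite strand, among them Slc25a33 (14.9%), Slc25a11 (8.92%), Slc25a46 (7.06%) and Slc25a10 (6.6%). None of the 5 genes that passed overlapped another gene's exons.

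**Figure D3:**
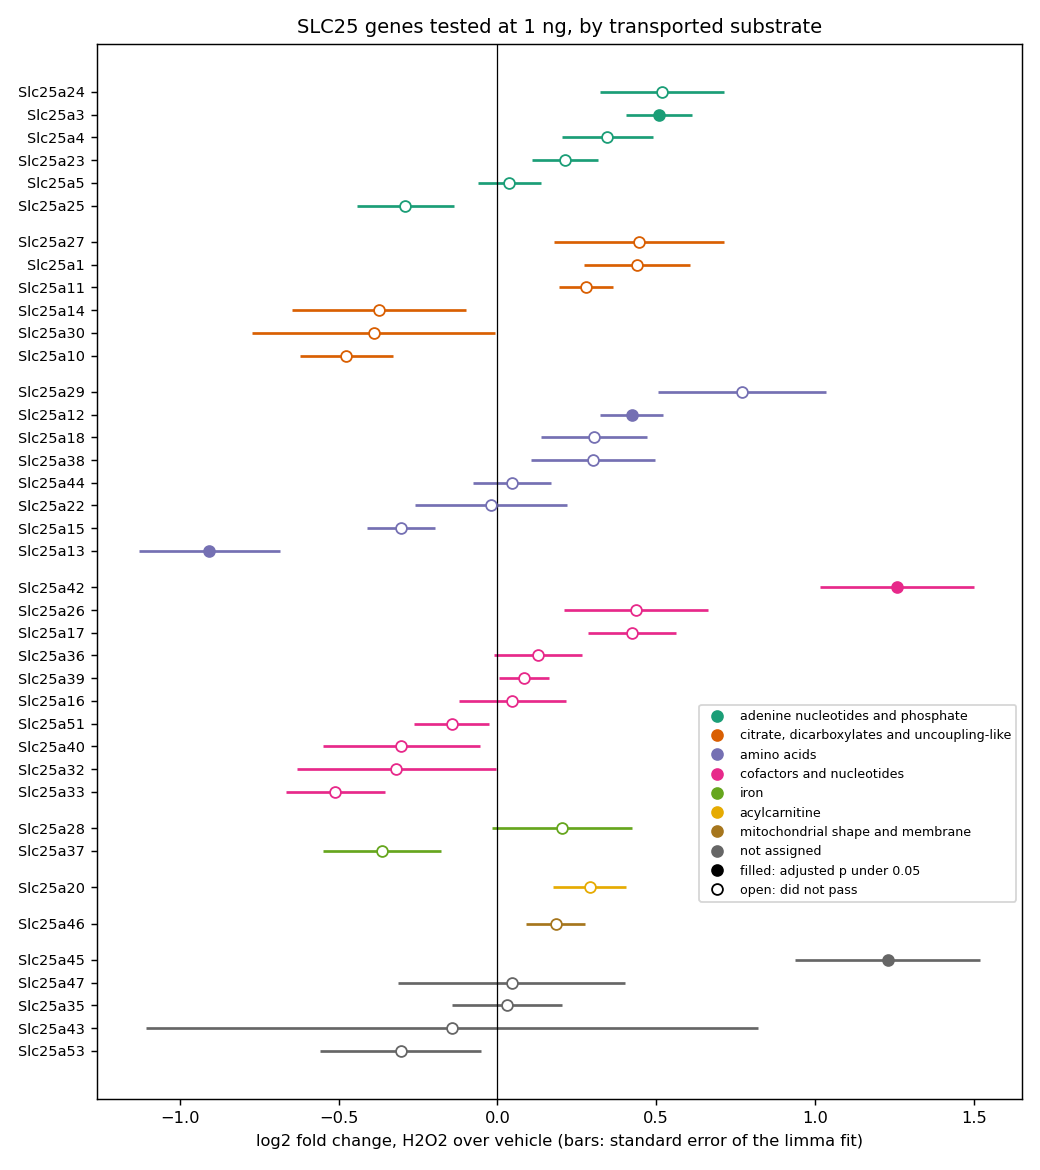
Log2 fold change, H2O2 over vehicle, of 39 of the 40 SLC25 genes tested at 1 ng, grouped and coloured by transported substrate. Bars are standard errors from limma, and filled points had an adjusted p under 0.05. The 5 filled points run from -0.91 (Slc25a13) to 1.26 (Slc25a42), in 4 of the 8 groups.

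Over the 40 tested members, 25 had a positive and 15 a negative log2 fold change, with a median of 0.07, against 0.02 over all 13692 genes. Taken culture by culture, the members' median was 0.25 for F5, 0.06 for F8 and 0.09 for M9. In 14 members all H2O2 libraries exceeded all vehicle libraries, and in 5 all were below, which is 35% and 12.5%, where all genes gave 18.1% and 19.7%. By DESeq2 on the recovered reads 5 members were higher and 3 lower (9.67% and 10.7% of all genes), adding Slc25a29, Slc25a33 and Slc25a10 to the limma calls, and with the culture as a block in DESeq2 Slc25a33 did not pass. By edgeR the calls were those of limma (5.76% higher and 7.25% lower of all genes).

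The limma calls rested on all 6 libraries. Without any 1 vehicle library no gene of the 1 ng table passed, SLC25 or other, and the lowest adjusted p among the 5 members was 0.0810 without F8, 0.0848 without F5 and 0.0964 without M9. Without the H2O2 library of F5 or of F8, only Slc25a3 and Slc25a42 of the members passed, and without that of M9 these with Slc25a12, Slc25a25 and Slc25a29. Among all genes limma called 1564 of 13652 without F5, 638 of 13674 without F8 and 1667 of 13662 without M9. DESeq2, tried in the same way after the data were seen, called 3 to 7 of the 40 members. Slc25a3, Slc25a13 and Slc25a42 were among them whichever library was left out. Among all genes these DESeq2 fits called 1406 to 2795 of the 13652 to 13674 tested.

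The members differed widely in level. Per kilobase of exons, Slc25a5 averaged 12062 normalized counts in H2O2 and 11728 in vehicle libraries, and alone made up 49.996% of the summed vehicle level of the 48 members. Slc25a4 followed at 5230.0 and 4064, Slc25a39 at 1702 and 1607, Slc25a18 at 1258 and 1016, and Slc25a11 at 1029 and 848 (H2O2 and vehicle means). Together these 5 made up 82.1% of the vehicle sum. Of the genes that passed, Slc25a3 ranked sixth in vehicle libraries, at 803 per kilobase, while Slc25a42 and Slc25a45 were among the lowest kept members.

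**Figure D4:**
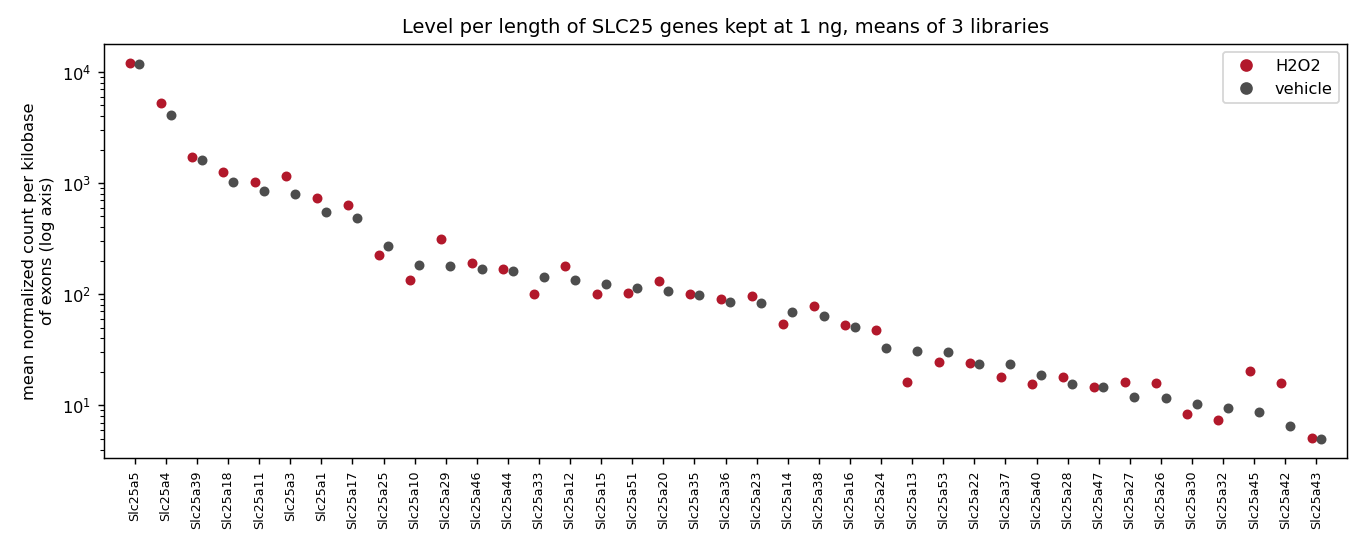
Mean normalized count per kilobase of exons of 39 of the 40 members kept at 1 ng, on a log axis, H2O2 (red) left of vehicle (grey), ordered by the vehicle mean of 3 libraries. Slc25a5 stands at 12062 and 11728, and Slc25a42 and Slc25a45 lie near the low end with the red point above the grey one.

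At 100 pg CLEAR kept 39 members and at 10 pg 17. Limma called none of the 39 at 100 pg, where it called 0.666% of 12171 genes higher and 0.846% lower. Of the 39, 8 had an unadjusted p under 0.05, as did 2558 of all 12171 genes. With the culture as a block limma again called none of them (1.77% of all genes higher, 2.29% lower). DESeq2 called 3 higher (Slc25a3, Slc25a17 and Slc25a46; 4.31% of all genes) and 1 lower (Slc25a10; 5.01%), and edgeR none (0.649% and 0.739%). The groups did not overlap for 9 members higher under H2O2 and 1 lower, where all genes gave 12.6% and 14.1%.

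Slc25a3 at 100 pg had 8922, 6145 and 6913 normalized counts under H2O2 and 5399, 4881 and 4972 under vehicle, without overlap (log2 fold change 0.51, SE 0.14, limma adjusted p = 0.0932, DESeq2 adjusted p = 0.0386). Slc25a12 had 1487, 1361 and 1454 under H2O2 and 1103, 1212 and 895 under vehicle, also without overlap (log2 fold change 0.43, limma adjusted p = 0.162). Slc25a42 had 108, 64.8 and 99.2 under H2O2 and 39.8, 39.9 and 75.6 under vehicle. The last groups overlapped through the vehicle library of M9, and the log2 fold change was 0.83 (SE 0.46, limma adjusted p = 0.347).

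Slc25a13 at 100 pg had 11.8, 112 and 57.8 normalized counts under H2O2 and 90.8, 114 and 170.5 under vehicle, lower in each culture though by little in F8 (log2 fold change -1.47, SE 0.75, limma adjusted p = 0.307). Slc25a45 had 86.1, 0 and 30.5 under H2O2 and 12.97, 65.8 and 59.0 under vehicle. Its cultures disagreed in direction. The log2 fold change was -1.45 (SE 1.48, limma adjusted p = 0.630), and 0.45 without the H2O2 library of F8.

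The 4 members called by DESeq2 at 100 pg each differed in one direction in all 3 cultures there. Slc25a46 had 1390, 1254 and 1318 normalized counts under H2O2 and 886, 926 and 644 under vehicle (log2 fold change 0.71, SE 0.18, limma adjusted p = 0.0770, DESeq2 adjusted p = 0.0125). Slc25a17 had 2290, 2419 and 1880.1 under H2O2 and 1673, 1570 and 1229 under vehicle (log2 fold change 0.56, limma adjusted p = 0.104, DESeq2 adjusted p = 0.0435). Slc25a10 had 424, 461 and 458 under H2O2 and 702, 760 and 768 under vehicle (log2 fold change -0.73, SE 0.17, limma adjusted p = 0.0675, DESeq2 adjusted p = 0.00217). None of the 3 had overlapping groups.

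At 10 pg limma called 0 of 6356 genes, members or not, although 646 genes and 2 of the 17 members had an unadjusted p under 0.05. DESeq2 called Slc25a17 higher (0.645% of all genes higher, 0.865% lower) and edgeR called no gene. Slc25a17 had 2517, 2835 and 3222 normalized counts under H2O2 and 909, 1670 and 991 under vehicle, without overlap (log2 fold change 1.31, SE 0.33, limma adjusted p = 0.335, DESeq2 adjusted p = 0.0403). Slc25a3 had 8067, 6741 and 7138 under H2O2 and 4292, 4620 and 5871 under vehicle, also without overlap (log2 fold change 0.58, SE 0.20, limma adjusted p = 0.388). These 2 were the only tested members whose H2O2 libraries were all above the vehicle libraries (7.91% of all genes), and Slc25a15 was the only one with all below (8.43%).

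Slc25a42 and Slc25a13 were not kept at 10 pg. Slc25a45 was kept there with 121 normalized counts in the H2O2 library of F5 and 0 in the other 5 libraries, so its fold change is not read.

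**Figure D5:**
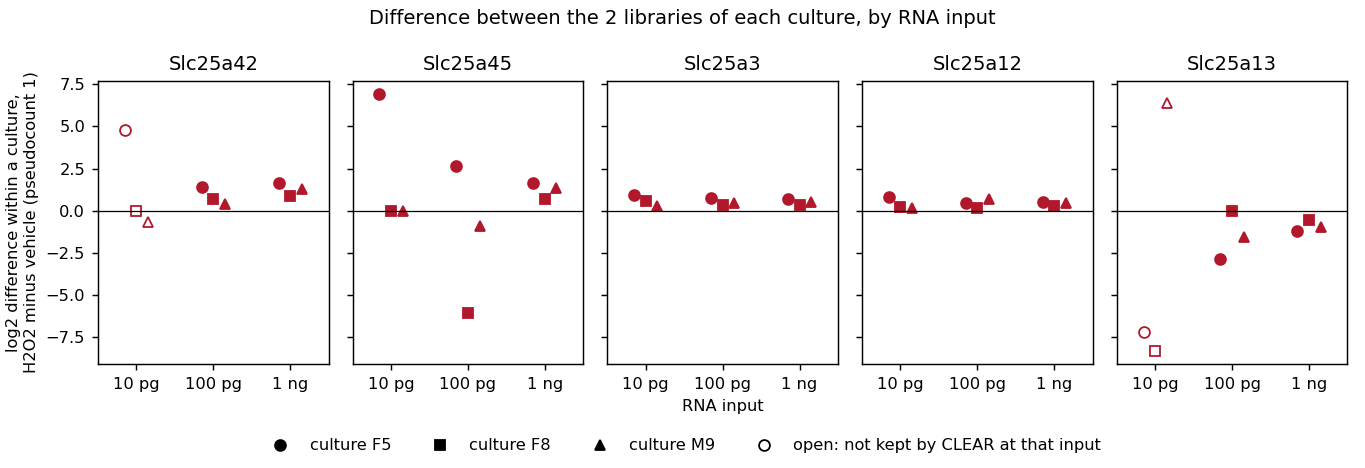
Log2 difference, H2O2 minus vehicle, between the 2 libraries of each culture (pseudocount of 1) at 10 pg, 100 pg and 1 ng for the genes that passed at 1 ng. Shape gives the culture, and open points mark an input at which CLEAR did not keep the gene. Slc25a3 and Slc25a12 lie above 0 in all cultures at all inputs, while Slc25a45 runs from -6.06 to 2.64 at 100 pg.

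Spread between the libraries of a group grew as input fell. Differences between cultures and between library preparations were not separated in it. For the 40 members kept at 1 ng, the median coefficient of variation was 13.9% in H2O2 and 10.6% in vehicle libraries at 1 ng, 21.7% and 20.9% at 100 pg, and 79.0% and 86.2% at 10 pg. None of the 240 values of these members was 0 at 1 ng, against 3 at 100 pg and 45 at 10 pg. The 17 members kept at 10 pg had medians of 26.1% in H2O2 and 24.3% in vehicle libraries there, and the 23 others 95.7% and 102.4%. CLEAR made this split on the same 10 pg libraries, so the contrast is not independent of the filter.

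Genes that work with the carriers moved in both directions at 1 ng, where limma called 5.57% of all genes higher and 7.11% lower. Carrier precursors are brought to the inner membrane by the TOM complex, small TIM chaperones and the TIM22 complex, and of 15 such genes tested none rose and 4 fell: Tomm40, Tomm70a, Timm8a1 and Timm9, with log2 fold changes of -0.38, -0.41, -0.98 and -0.56. Of 17 other mitochondrial channels and transporters, 3 rose (among them Micu2 and Sfxn3, at 0.37 and 0.57) and 1 fell (Sfxn2, at -0.95). Micu2 helps to gate the calcium uniporter. Of 3 tested family members under other names, Ucp2, Mtch1 and Mtch2, none passed.

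Of 21 genes, mostly enzymes, that use or make carried substrates, 1 rose and 5 fell, or 2 and 6 with the culture as a block and 3 and 7 by DESeq2. Among all genes the block gave 8.44% higher and 9.87% lower, and DESeq2 9.67% and 10.7%. Alas1, the first enzyme of heme synthesis, rose with a log2 fold change of 0.64. The mitochondrial folate enzymes Shmt2, Mthfd2 and Mthfd1l fell by 1.44, 1.21 and 1.36 on the log2 scale, and the malic enzyme Me2 by 0.64. Of 11 regulators of mitochondrial biogenesis, Ppargc1a and Esrra rose (0.64 and 0.61) and Pprc1 fell (-1.07), and with the block Nrf1 fell as well (-0.52, limma adjusted p = 0.0258 with the block and 0.0537 without). The median log2 fold change was -0.16 for the import genes, 0.09 for the other channels, 0.03 for the enzymes and -0.40 for the regulators, against 0.02 for all genes.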

How the data were processed

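The authors trimmed reads (AdapterRemoval 2.2.0), aligned them with HISAT2 2.0.6 and counted read pairs per gene, without strand, with featureCounts (Subread 1.5.1) and GENCODE M14. The methods name the mouse build GRCm38 and the submitters' processing notes GRCh38. The symbols are of mouse genes, and no coordinate was taken from the deposited files. The deposited signal is the normalized count, 1 table per input before CLEAR 1.0 and 1 after it. All values were whole multiples of 1 read to within 1e-08, so whole reads could be recovered. No column of other series was present.

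For each input, limma 3.58.1 (eBayes with trend, two-sided) was run in R 4.3.3 on log2(normalized count + 1) of the genes kept by CLEAR with any read, with treatment as the only term and Benjamini-Hochberg adjustment at 0.05 over all of them. Reported fold changes are differences between group means of log2(normalized count + 1). The added 1 shrinks a difference between low counts. For low or uneven genes the fold change can also differ from the ratio of mean counts in size or sign. Slc25a27 at 100 pg had a log2 fold change of 0.65, with an H2O2 mean 0.907 times the vehicle mean. DESeq2 1.42.0 and edgeR 4.0.16 (quasi-likelihood, TMM) on recovered reads, TMM scaling, pseudocounts of 0.5 and 5, the unfiltered table, a mean of at least 50, a culture block and left-out libraries were alternatives. Scripts were tested on simulated data. Levels per kilobase used the union of exons of GENCODE M21, in which all 48 symbols matched.

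The headers give cultures, and the deviations of same-named libraries from their group means correlated at 0.122 (F5), 0.101 (F8) and 0.341 (M9) at 1 ng, 0.0771, 0.0262 and 0.170 at 100 pg, and -0.0293, 0.0103 and 0.0341 at 10 pg. Because the headers name the same culture, the culture block is printed beside results whose call it changed, while the main fit has no block. P-values measure the spread between the libraries of 3 cultures from 2 lines, in which culture and library preparation are not separated.

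Genes named in full were those that passed, the 5 with the highest vehicle level per kilobase and the 5 with the largest change that did not pass, with others named inside their substrate group. The members and all lists were chosen with earlier results of these data known. Values of 3 genes, 1 of them a member, are not reported here, although they are included in the counts.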

Additional observations from a re-analysis of the deposited data

Results flagged for a closer look

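Slc25a14, an uncoupling-like carrier, was lower under H2O2 in all 3 cultures at 1 ng, with 86.5, 132 and 164 normalized counts under H2O2 and 144, 142 and 201 under vehicle (log2 fold change -0.37, limma adjusted p = 0.396). At 100 pg it was higher in all 3, with 155, 162 and 194 under H2O2 and 76.0, 88.7 and 117 under vehicle (log2 fold change 0.87, limma adjusted p = 0.196). The iron carrier Slc25a28 went the other way, with a log2 fold change of 0.20 at 1 ng and -0.60 at 100 pg, each shared by all 3 cultures. Both drew attention because every culture moved one way at one input and the opposite way at the other. The inputs are dilutions of the same RNA, none of the 4 fold changes passed, and the difference between inputs was not tested.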

How the results depend on the processing

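At 1 ng the counts of 4 SLC25 genes that rose and 1 that fell were the same or within 1.5 times with edgeR, TMM scaling, both pseudocounts, the unfiltered table and the minimum mean of 50. In the unfiltered table Slc25a12 had an adjusted p of 0.0525. DESeq2 gave 5 and 3, and the replicate block 7 and 2 both in limma and in DESeq2, the last fit chosen after seeing the data. With libraries left out, the limma counts ran from 0 to 4 for genes that rose and 0 to 1 for genes that fell, and the DESeq2 counts from 2 to 5 and 1 to 2. At 100 pg, where limma called none, DESeq2 gave 3 higher and 1 lower, and 4 and 1 with the replicate block, and at 10 pg it gave 1 higher with or without the block. Among all genes DESeq2 with the replicate block called 1181 higher and 1337 lower of 13692 at 1 ng. It called 606 and 722 of 12171 at 100 pg, and 106 and 106 of 6356 at 10 pg. With the replicate block DESeq2 lost Slc25a33 and gained Slc25a1 and Slc25a17 at 1 ng, and gained Slc25a29 at 100 pg. Over left-out libraries the members' median log2 fold change ran from 0.032 to 0.179 at 1 ng, 0.061 to 0.173 at 100 pg and 0.10 to 0.37 at 10 pg, lowest at each input without the H2O2 library of F5. Among the members recomputed under every alternative, the sign changed for 2. That of Slc25a5 at 1 ng ran from -0.026 (without the H2O2 library of F5) to 0.085 (without that of F8), and that of Slc25a45 at 100 pg from -3.50 (without both libraries of F5) to 0.86 (without both libraries of F8). DESeq2 and limma also differed in sign for Slc25a22 and Slc25a43 at 1 ng, Slc25a27 and Slc25a36 at 100 pg and Slc25a16 and Slc25a25 at 10 pg. The causes were not tested. Among the single-gene results recomputed under the alternatives, 426 of 479 kept direction and call, 39 lost the call, 11 gained one and 3 changed sign. Only the 5 members that passed at 1 ng had a call to lose, so all 39 losses were theirs. The 426 include genes called in neither the main fit nor the alternative, and so do not measure how firm the calls are.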
